A study of Mus musculus with 22 samples.

Results

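The miR-34 and miR-449 family was followed through a mouse model of tubal high-grade serous carcinoma. Its members were taken as every probe of the NanoString nCounter mouse miRNA panel whose name begins with miR-34a, miR-34b, miR-34c or miR-449, and these were 7 of the 566 mouse miRNAs on the panel: mmu-miR-34a, mmu-miR-34b-3p, mmu-miR-34b-5p, mmu-miR-34c, mmu-miR-449a, mmu-miR-449b and mmu-miR-449c. The species prefix is left out from here on. Counts were available for 22 samples: 5 control fallopian tubes (CT), 5 doxycycline-induced fallopian tubes (FT), 5 metastatic tumors (M), 3 plasma samples of control mice (CS) and 4 plasma samples of tumor-bearing mice (TS). All mice carried floxed Brca1 or Brca2, and doxycycline switches on a Cre recombinase under the Pax8 promoter, which is active in the secretory cells of the tubal epithelium.

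Controls were not induced, so CT and CS carried the floxed alleles unrecombined. The CT were Brca1 fl/fl (CT1 and CT3), Brca1 fl/+ (CT2), Brca2 fl/fl (CT4) or Brca2 fl/+ (CT5). FT1, FT3 and FT5 were Brca2 -/+, FT2 was Brca1 -/- and FT4 was Brca2 -/-. Among the tumors, M1 and M3 were Brca2 -/-, M4 was Brca2 -/+, and M2 and M6 were Brca1 -/+. M6 was an ovarian tumor and the other 4 were peritoneal. The mice of CT2 to CT4 also gave CS2 to CS4, in that order, and those of FT2 to FT5 gave TS1 to TS4. The study had matched FT and M from some mice, and the sources used here do not name them. By the full genotypes it lists, M4 matches FT1, and no other M analysed here matches an FT. Ages were not given in the sources used here. Cells of the tube keep the floxed alleles after induction only where neither they nor the cells they descend from made Cre. Which cells these were was not measured.

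The miR-34 miRNAs repress cell cycle and survival genes such as cyclins, cyclin-dependent kinases and Bcl2. miR-34b and miR-34c are processed from a shared transcript, as are the miR-449 miRNAs, which lie in an intron of Cdc20b. In epithelia with motile cilia, among them the fallopian tube, miR-34b, miR-34c and miR-449 are abundant in multiciliated cells and are needed together for cilia to form, whereas miR-34a is expressed widely and at modest levels.

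The mature sequences show why the members are treated as a family. Of the 7 members, 5 were matched to the RefSeq mouse miRNA sequences (GRCm38.p6), and these are given from 5′ to 3′ with the seed, bases 2 to 8, in capitals. The seed is the stretch through which a miRNA mainly recognizes its targets.
miR-34a-5p: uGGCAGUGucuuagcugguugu
miR-34b-5p: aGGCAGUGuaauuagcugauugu
miR-449a-5p: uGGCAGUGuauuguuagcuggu
miR-449c-5p: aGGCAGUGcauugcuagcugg
miR-34b-3p: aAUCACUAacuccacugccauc

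The first 4 of these share the seed GGCAGUG, which 4 of the 1738 mature miRNAs of the table carry (0.23%). No sequence was matched for the miR-34c and miR-449b probes, so this share says nothing of their seeds. miR-34b-3p, the opposite arm of the miR-34b hairpin, has the seed AUCACUA, found in 2 of the 1738, the other being miR-34c-3p. Members were also compared position by position from the 5′ end, seed included and without gaps. Counted this way, miR-449a and miR-449c were identical at 18 of 21 bases, miR-34a and miR-449a at 15 of 22, and miR-34a and miR-34b-5p at 11 of 22. An inserted base shifts all later positions, so these counts can understate likeness. miR-34a lies at chr4:150068473-150068494 on the plus strand. miR-34b-5p (chr9:51103610-51103632) and miR-34b-3p (chr9:51103574-51103595) lie on the minus strand, and their hairpin (chr9:51103562-51103645) neighbours that of miR-34c (chr9:51103034-51103110). miR-449a (chr13:113037549-113037570) and miR-449c (chr13:113036008-113036028) lie on the plus strand, with 1442 bases between their hairpins. Because members are so alike, the separation of their signals rests on the specificity of the panel's ligation step, which was not tested.

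Normalized counts are deposited barcode counts scaled so that the abundant miRNAs of a sample (the top 100 in tissue, the top 30 in plasma) have an equal geometric mean in all samples of that kind. A tissue sample held 70164 to 598321 counts on miRNAs in all, and a plasma sample 18350 to 269005. The detection level of a sample was the mean plus 2 SD of its 8 negative hybridization controls, which was 18.3 to 67.7 counts in tissue and 25.0 to 48.4 counts in plasma. In normalized counts it ran from 22.9 to 102 in CT, from 11.9 to 85.5 in FT and from 18.4 to 119.6 in M, so values under it have no order.

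In the control tubes, miR-34b and miR-34c were readily measured, and the remaining members were near or under detection. miR-34b-3p and miR-34b-5p were above the detection level in 5 of 5 CT, and miR-34c, miR-449a and miR-34a in 3 of 5 each. miR-449b and miR-449c were above it in 0 of the 22 samples, at 2 to 14 and 3 to 16 counts in tissue, so nothing further can be said of them at this depth. Where both were detected, miR-34b-5p gave 0.771 to 2.19 times the counts of miR-34b-3p in CT (median 1.28, n = 5). miR-34c gave 2.39 to 3.63 times the counts of miR-34b-5p (n = 3), and miR-449a gave 0.0955 to 0.112 times (n = 3). These count ratios also carry the capture efficiency of each probe, so they are not ratios of molecules.

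**Figure D1:**
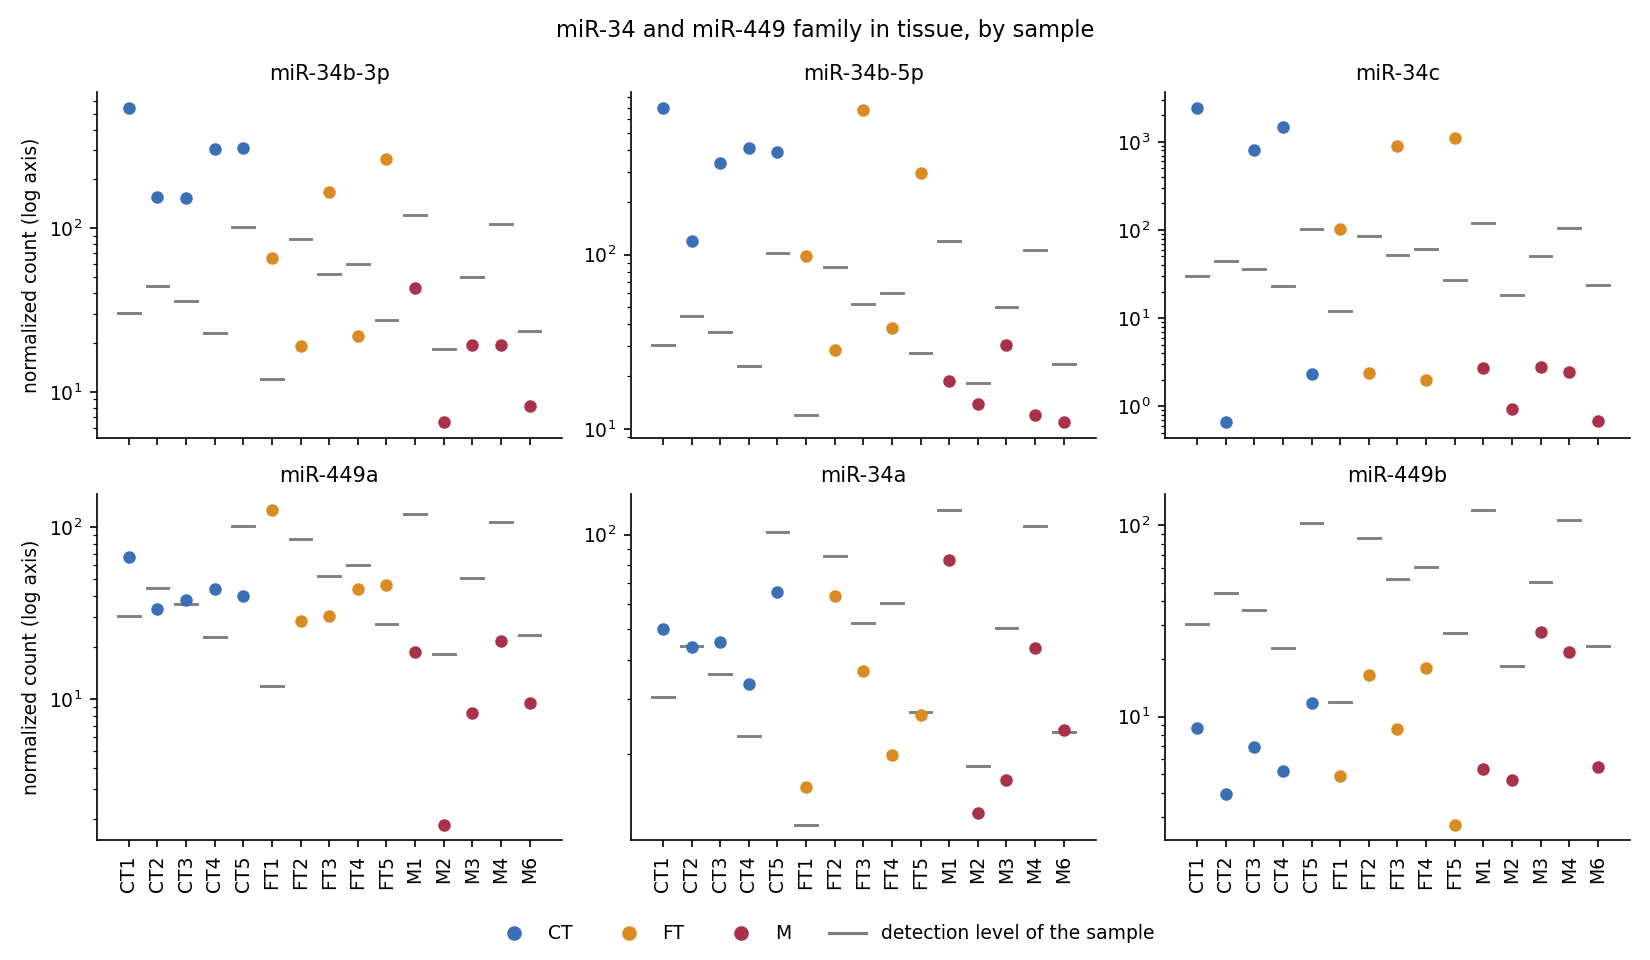
Normalized counts of 6 members (log axis) in each of the 15 tissue samples. Points are single samples coloured by group and the grey bars mark the detection level of that sample. Both miR-34b arms lie above their bars in 5 of 5 CT and under them in 5 of 5 M, and miR-449b lies under its bar in every sample.

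miR-34b-3p was 544.2, 154.7, 152.5, 304.3 and 306.9 normalized counts in CT1 to CT5. In FT1 to FT5 it was 65.6, 18.9, 166.4, 21.9 and 264.3. In the metastatic tumors M1, M2, M3, M4 and M6 it was 42.8, 6.52, 19.3, 19.3 and 8.19. Every M lay under every CT and under its own detection level, whereas FT spanned the gap: FT3 and FT5 were within the range of CT, FT1 was under it, and FT2 and FT4 were not detected.

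miR-34b-5p, the arm with the family seed, was 698.2, 119.3, 334.6, 408.4 and 388.8 in CT1 to CT5. In FT1 to FT5 it was 98.1, 28.4, 680.7, 37.8 and 296.5. In M1, M2, M3, M4 and M6 it was 18.7, 14.0, 30.3, 12.1 and 10.9. The same samples stood high and low as for the 3p arm. FT3 and FT5 were within the CT range, and no M was detected or reached the lowest CT.

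miR-34c was 2448.7, 0.66, 800.9, 1484.2 and 2.34 in CT1 to CT5. In FT1 to FT5 it was 103.0, 2.37, 888.2, 1.99 and 1097.6. It lay between 0.68 and 2.76 in M. The low values all stand for a deposited count of exactly 1, the lowest count in the file, which miR-34c had in CT2, CT5, FT2, FT4 and all 5 M. The count of 1 in CT2 and CT5 stood beside 182 and 166 counts of miR-34b-5p in the same samples, although both miRNAs come from a shared transcript. In FT2 and FT4, in contrast, miR-34b-5p was itself at 12 and 19 counts. CT2 and CT5 were the fl/+ controls, whereas FT2 and FT4 carried -/- alleles, and the part of genotype in the counts of 1 was not tested.

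Few other miRNAs had a count of exactly 1 so often. On the panel, 3 miRNAs had it in 10 or more of the 22 samples, namely miR-34c (16), miR-155 (21) and miR-543 (13), of which the last was picked out after its values were seen. miR-155 and miR-543 never exceeded 61 and 62 counts, while miR-34c reached 2241. Over the panel, 5 miRNAs, miR-34c among them, had exactly 1 count in at least 1 sample and more than 200 in another. The strongest positive hybridization control gave 17153 to 26709 counts in the 4 CT and FT samples with miR-34c at 1 and 9593 to 18813 in the 6 with a higher count. Its part in the values of 1 was not tested. Group means of miR-34c (947 ± 1043 in CT and 418.6 ± 531 in FT, SD, n = 5 each) therefore mix values of 102.96 and more with values at the floor.

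miR-449a was 66.7, 33.4, 37.6, 43.9 and 39.8 in CT1 to CT5. In FT1 to FT5 it was 125.3, 28.4, 30.3, 43.7 and 45.8. In M1, M2, M3, M4 and M6 it was 18.7, 1.86, 8.27, 21.8 and 9.55. CT and FT overlapped, with FT2 and FT3 just under the lowest CT and FT1 the highest of all tissue samples, and the measured values of M were lower than those of every CT and FT. As CT2, CT5, FT2, FT3, FT4 and all 5 M were under their detection levels, these values cannot be ordered among themselves.

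miR-34a, the most widely expressed member, was 50.3, 43.9, 45.5, 33.5 and 65.6 in CT1 to CT5. In FT1 to FT5 it was 15.7, 64.0, 36.7, 19.9 and 26.7. In M1, M2, M3, M4 and M6 it was 82.9, 13.0, 16.5, 43.5 and 23.9. The 3 groups overlapped, and only 3 CT, 1 FT and 1 M were above detection.

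The metastatic tumors were then compared with the control tubes, which asks how the family stands in tumors that lack at least 1 allele of Brca1 or Brca2. miR-34b-5p, miR-34b-3p, miR-34c and miR-449a fell, and miR-34a did not pass the test. In edgeR, 4 of the 7 members were lower in M at an adjusted p under 0.05 and 0 were higher, beside 4.24% of all 566 miRNAs called lower, 10.2% called higher and 14.5% called in either direction. The groups did not overlap for 3 of the 7, all lower in M, against 5.12% of all miRNAs.

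miR-34b-5p fell from 389.9 ± 207.2 (SD, n = 5) in CT to 17.2 ± 7.91 (SD, n = 5) in M. Its log2 fold change was −4.53 (SE 0.576, adjusted p = 7.24e-05 in edgeR), and it was lower in 5 of 5 tumors with the smallest p that the 252 splits of the exact permutation test allow, 0.00794. As all M were under the detection level, the fall can be stated as at least 6.93-fold.
miR-34b-3p fell from 292.5 ± 159.9 to 19.2 ± 14.5 (SD, n = 5 each), with a log2 fold change of −4.0 (SE 0.610, adjusted p = 0.000203). It was also lower in 5 of 5 tumors (exact permutation p = 0.00794), and it was at least 5.34-fold lower in M.
miR-449a fell from 44.3 ± 13.1 to 12.0 ± 8.11 (SD, n = 5 each), with a log2 fold change of −1.99 (SE 0.510, adjusted p = 0.0138, exact permutation p = 0.00794). Two-sided permutation p-values adjusted over all 566 miRNAs were 0.0633 for each of these 3 miRNAs. No bound on the fold of miR-449a can be given, since with M set to the detection levels no fall was left (0.881-fold). CT2 and CT5 were themselves under the detection level, so the separation of groups for miR-449a rests in part on values without an order. Its call was kept in 19 of 22 alternative runs and was lost, among others, without CT1 (log2 fold change −1.78).

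miR-34c had the lowest fold change of all 566 miRNAs (log2 fold change −9.13, SE 1.68, adjusted p = 0.00119 in edgeR). With CT2 and CT5 at the floor its groups overlapped and the exact permutation test gave p = 0.143. The size of the fitted change rests on the counts of 1. The fall was at least 1.74-fold when the detection level of each tumor was put in place of its count of 1. That bound rested on single libraries: it ranged up to 5.89-fold without CT2 (4.28-fold without CT5), and no bound was left without CT1, CT3 or CT4. The call of miR-34c was kept in 20 of 23 alternative runs and was lost, among others, with limma (log2 fold change −5.71). miR-34a was 47.8 ± 11.7 in CT and 36.0 ± 28.8 in M (SD, n = 5 each), with a log2 fold change of −0.44 (95% interval −1.38 to 0.49, adjusted p = 0.519 in edgeR). The median log2 fold change of the 7 members was −1.99, beside 0.29 over all miRNAs.

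**Figure D2:**
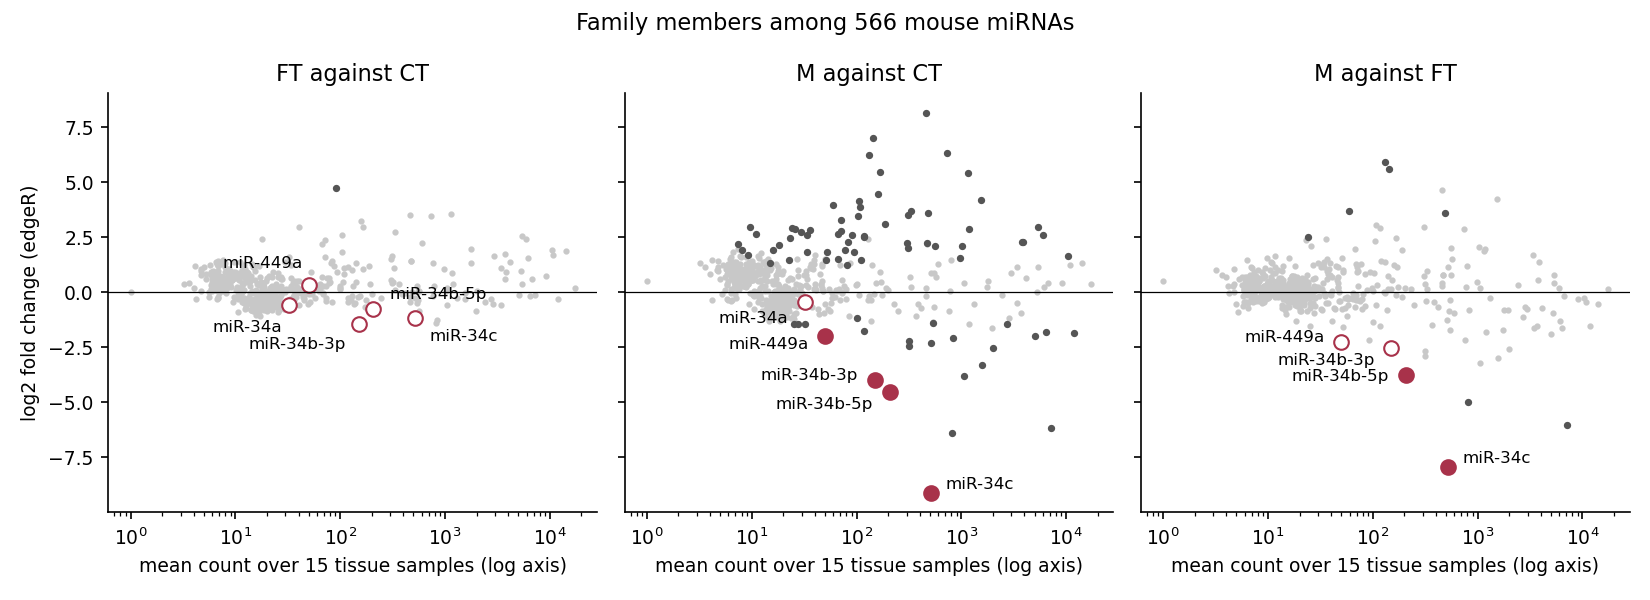
Log2 fold change of all 566 mouse miRNAs (edgeR) against the mean deposited count over the 15 tissue samples (log axis), in 3 comparisons. Family members detected in at least 2 samples of a group are circles, filled where the adjusted p is under 0.05, with called miRNAs in dark grey and the others in light grey. In M against CT, 4 members are filled and lie below 0, with miR-34c lowest at −9.13.

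The induced tubes were compared with the control tubes to see the family at the earlier stage. Of the 7 members, 0 passed the test in edgeR in either direction, beside 0.177% of all miRNAs (the liver miRNA miR-122, higher in FT with a log2 fold change of 4.74), and 1 of 7 had an unadjusted p under 0.05, beside 7.24%. That member was miR-34b-3p, at 107.4 ± 106.1 in FT (SD, n = 5). Its log2 fold change against CT was −1.43 (SE 0.649, 95% interval −2.71 to −0.16, unadjusted p = 0.0366, adjusted p = 0.635). It ranked 1 of the 566 miRNAs from the lowest fold change, and between 1 and 16 over 23 alternatives. All 5 FT were under the CT mean and 3 were under the lowest CT (exact permutation p = 0.0476). Adjusted over all 566 miRNAs, this permutation p was 0.852.

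miR-34b-5p was 228.3 ± 275 in FT (SD, n = 5), with a log2 fold change of −0.77 (95% interval −2.15 to 0.61, adjusted p = 0.759), and 3 of 5 FT lay under the lowest CT (exact permutation p = 0.151). miR-34c had a log2 fold change of −1.18 (95% interval −3.66 to 1.30, adjusted p = 0.759), and its exact permutation p was 0.794. miR-34a had −0.58 (95% interval −1.49 to 0.33, adjusted p = 0.759), and miR-449a, the only one of these 5 above 0, had 0.34 (95% interval −0.60 to 1.27, adjusted p = 0.787). The value of miR-449a turned to −0.24 without FT1. For 4 of these 5 members the interval reached below −1, so falls of 1 on the log2 scale lie within what these samples allow.

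The wide spread among FT was shared by both arms of miR-34b and by miR-34c. For each of these 3 miRNAs, FT3 and FT5 were the highest of the 5 FT, FT1 was next, and FT2 and FT4 were low. FT2 and FT4 were under detection for them, except that miR-34b-5p in FT4 was near its detection level. FT1, FT3 and FT5 were Brca2 -/+, whereas FT2 was Brca1 -/- and FT4 was Brca2 -/-. The -/+ tumors M2, M4 and M6 were under detection as well. The part of Brca genotype in these levels was not tested. miR-449a did not follow this order. FT1 had 359 counts of it, 1.28 times its miR-34b-5p counts, while FT5 had 0.154 times and the 3 CT with both detected had 0.0955 to 0.112 times.

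The metastatic tumors were also set against the induced tubes, with the caution that M4 and FT1 may come from the same mouse. In edgeR, 2 of the 7 members were lower in M, beside 0.707% of all miRNAs called lower, and 0 were higher, beside 0.883%. miR-34b-5p fell with a log2 fold change of −3.75 (SE 0.849, adjusted p = 0.012, exact permutation p = 0.0159) and was at least 2.38-fold lower, a bound that ranged from 1.53 (without FT3) to 3.39 (without FT2) with each sample left out. Its call was lost without FT3 (log2 fold change −2.78). miR-34c fell with a log2 fold change of −7.92 (SE 1.39, adjusted p = 0.00147), although FT2 and FT4 shared its floor (exact permutation p = 0.0794), and no bound was left when FT1, FT3, FT5, M2 or M6 was taken out.

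miR-34b-3p and miR-449a missed the threshold at an adjusted p of 0.0629 each, with log2 fold changes of −2.55 (SE 0.753) and −2.28 (SE 0.665). miR-34b-3p passed it without FT2 or without M1 (log2 fold changes −2.82 and −3.08), and miR-449a without FT2 or without M4 (−2.44 and −2.61). The measured values did not overlap for 1 member, miR-449a, beside 0.353% of all miRNAs that were lower in M without overlap, but 3 of 5 FT and all 5 M were under detection for it, so that separation cannot be read as an order of levels. The comparisons of M with CT and of M with FT share the M samples and those of FT and M with CT share the CT samples, so they do not count as separate evidence. The count of members called here moved between 0 and 4 with the processing.

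Cell content was measured beside these values, since in bulk tissue fewer cells of a type and less RNA per cell cannot be told apart. Of the family, miR-34b, miR-34c and miR-449 are themselves markers of ciliated epithelium, whereas miR-34a is expressed more widely. The 5 members of the miR-200 family, which mark epithelium as a whole (miR-429, miR-141, miR-200c, miR-200b and miR-200a), were above detection in 5 of 5 CT and 5 of 5 FT. Only 1 of the 5 was above detection in all M. The summed normalized count of the 5 was 9285 to 11038 in CT, 8247 to 45392 in FT and 242.5 to 42010 in M, and in none of these groups was a member of the list at a count of 1 throughout. In M, 1 of the 5 was called lower (miR-141, log2 fold change −2.22, adjusted p = 0.0257) and 0 were called higher, with a median of 0.01 beside 0.29 over all miRNAs. In FT, 0 of 5 were called, with a median of 0.43 beside 0.15.

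**Figure D3:**
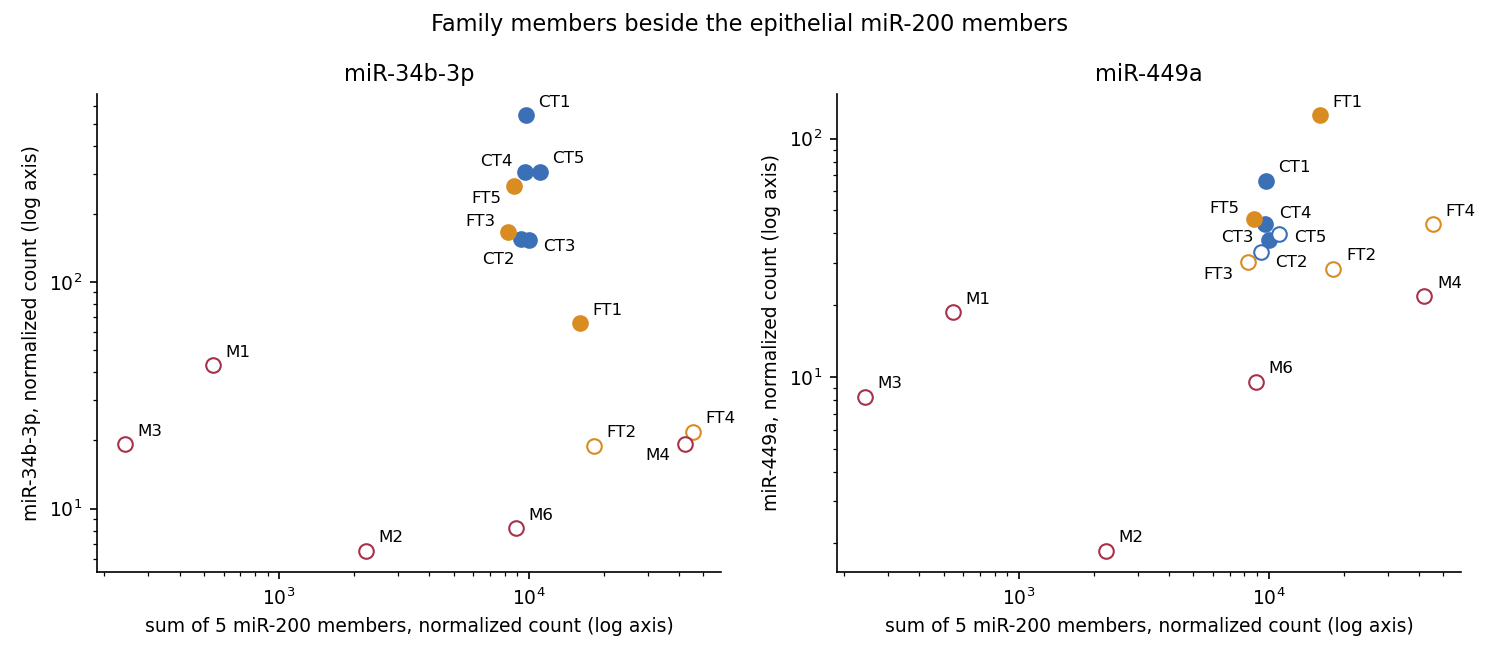
Normalized counts of miR-34b-3p and miR-449a (log axes) against the sum of 5 epithelial miR-200 members in the 15 tissue samples. Filled points were above the detection level and open points were not, with CT in blue, FT in orange and M in red. FT2, FT4, M4 and M6 have sums of 8891 or more with miR-34b-3p undetected, and M1 and M3 are low on both axes.

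The tumors were not alike in this respect. M1, M2 and M3 had sums of 545.7, 2235 and 242.5, well under every CT. M4 and M6 had sums of 42010 and 8891, above every CT and just under the lowest CT, with 19.3 and 8.19 normalized counts of miR-34b-3p. FT2 and FT4 likewise had sums of 18151 and 45392 with miR-34b-3p at 18.9 and 21.9. In M4, M6, FT2 and FT4 the sums rest mostly on miR-200b and miR-200c, and single members differed. miR-200a and miR-141 were 549.5 and 130.3 in FT2 and 954.6 and 176.4 in M4, under the lowest CT (1148.7 and 301.4). The remaining members of the list lay above every CT in FT2 and M4. In M6, miR-141 (194.5) and miR-200c (2708) were under the lowest CT, and in FT4 no member was. The within-sample log2 difference between miR-34b-3p and the mean of the 5 miR-200 members, which no scaling can move, was −3.27 to −1.42 in CT. It was −4.57 in FT1, −6.33 in FT2, −3.30 in FT3, −7.53 in FT4 and −2.28 in FT5. In the tumors it was −5.22 in M2, −7.33 in M4 and −7.23 in M6, and −0.54 and −0.95 in M1 and M3, where both terms were low. In samples where miR-34b-3p was not detected, its count is at background, and so is that term of the difference. In M1 and M3, miR-200b alone of the 5 miR-200 members was above detection, so most of the other term is at background there too.

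Marker miRNAs of other cell types were also set against CT, beside 4.24% of all miRNAs called lower and 10.2% called higher in M. Of the 5 smooth muscle and stroma miRNAs (miR-1, miR-133a, miR-133b, miR-143 and miR-145), 3 were called lower (for miR-143, log2 fold change −2.52, adjusted p = 0.00119) with a median of −2.0, and their sum was 4713 to 13280 in CT, 3111 to 16868 in FT and 626.5 to 3821 in M. Of the 5 leukocyte miRNAs 1 was called higher, miR-223 (log2 fold change 3.59, adjusted p = 0.00205), with a list median of 0.93. miR-155 of this list had a count of 1 in all 15 tissue samples. Their sum was 593 to 1164 in CT, 785.3 to 1336 in FT and 966.7 to 6301 in M. The erythrocyte list (1 of 4 higher, miR-486 with a log2 fold change of 3.27, median 1.67), the endothelial list (1 of 2 higher, miR-126-3p with 1.66, while miR-126-5p had −0.83 and did not pass, median 0.41) and the liver list (1 of 3 higher, miR-122 with 2.62, median 1.13) each held 1 call in M. Their sums were 2881 to 4771, 4224 to 6683 and 66.2 to 93.7 in CT, 1623 to 7603, 3205 to 55041 and 68.4 to 1342 in FT, and 2233 to 14358, 7887 to 19897 and 64.2 to 587.3 in M. The part of these cell types in the values of the family was not tested.

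Within the 15 tissue samples, likeness was computed for the 4 members with a mean tissue count of at least 50. Pearson's r on log2 normalized counts was 0.94 between the arms of miR-34b, 0.80 between miR-34b-5p and miR-34c, 0.70 between miR-34b-3p and miR-449a, and 0.55 between miR-34c and miR-449a. These values are descriptions: the points share 3 groups, the scaling and, in M, values under detection. Among the 137 other miRNAs with a mean tissue count of at least 50, those most like miR-34b-3p were miR-204 (r = 0.94), miR-143 (0.90) and miR-29c (0.90), and the same 3 headed the list for miR-34b-5p (miR-29c 0.94, miR-143 0.92, miR-204 0.92). miR-34c was most like miR-143 (0.76), miR-29c (0.70) and miR-29a (0.69), and miR-449a most like miR-135a (0.83), miR-1 (0.82) and miR-204 (0.81). By Spearman's rho, 2 of the 3 were kept for each miR-34b arm, 1 of 3 for miR-34c and 0 of 3 for miR-449a.

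miR-204, the miRNA closest to miR-34b-3p, averaged 1574 normalized counts in CT, 600.9 in FT and 19.5 in M, an order of groups like that of miR-34b-3p. Its log2 fold change was −6.37 (SE 0.681, adjusted p = 1.85e-05 in edgeR) in M against CT and −1.39 (SE 0.691, adjusted p = 0.688) in FT against CT. miR-143 differed from miR-34b-3p in FT, where it averaged 2611 beside 2523 in CT.

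Plasma was profiled to look for tumor-derived miRNAs in the circulation. No family member was above the detection level in any of the 7 plasma samples, from 10 ng of RNA rather than the 100 ng used for tissue. With a level set from the 3 negative ligation controls instead, TS3 alone was above it, for miR-34a, miR-34b-3p, miR-34b-5p and miR-449a (14 to 17 counts). miR-34b-3p gave 14, 11 and 17 counts in CS2 to CS4 and 11, 12, 14 and 8 in TS1 to TS4. miR-34b-5p gave 10, 8 and 32 counts in CS2 to CS4 and 8, 14, 15 and 12 in TS1 to TS4. miR-34c was at 1 count in all 7. The remaining detected-in-tissue members, miR-34a and miR-449a, gave 7 to 41 and 5 to 20 counts.

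**Figure D4:**
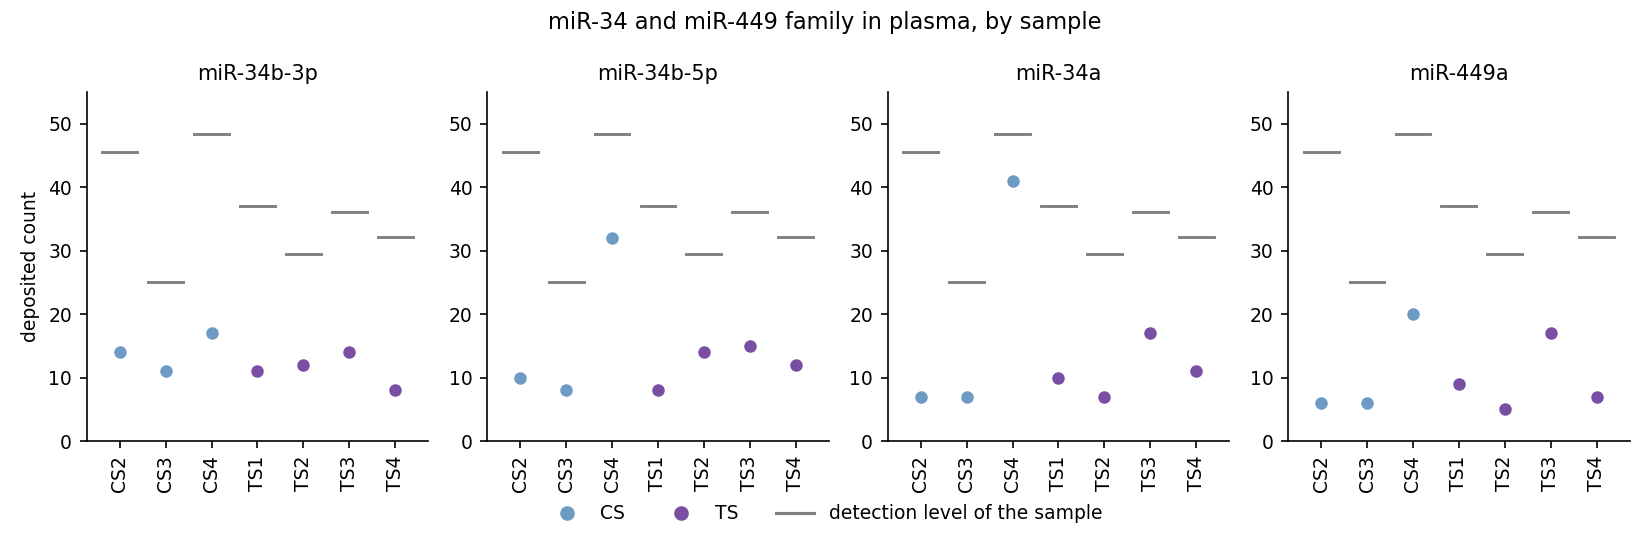
Deposited counts of 4 members in the 3 control plasma samples (CS) and the 4 plasma samples of tumor-bearing mice (TS), with grey bars at the detection level of each sample. All points lie under their bars, and the highest, miR-34a in CS4 at 41 counts, has its bar at 48.4.

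In edgeR, 0 of the 7 members were called between TS and CS, beside 0% of all 566 miRNAs, and 0 of the 7 had an unadjusted p under 0.05, beside 7.42%. No fold is given, as both groups were under detection. CT2 to CT4, the tubes of the same control mice, had 236, 154 and 409 counts of miR-34b-3p, and the tubes FT3 and FT5 of the mice of TS2 and TS4 had 77 and 485, so a tube with measurable miR-34b did not come with a measurable plasma count at this input. A difference in plasma was not detectable at this depth.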

How the data were processed

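The nCounter assay (mouse miRNA v1.5) ligates a tag to each miRNA and counts fluorescent barcodes without amplification. The authors deposited counts for 626 probes (566 mouse miRNAs, 60 controls and others), with a lowest value of 1. Whether any correction preceded deposit is not given in the sources used here. As in the study's methods, no background was subtracted and samples were scaled to the geometric mean of the 100 (tissue) or 30 (plasma) most abundant miRNAs. M5 and CS1 were not analysed here. Other engineered alleles of the model, and a miRNA list tied to one of them, are not reported here. The TS source is labelled serum and is called plasma in the study and here.

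FT and M were compared with CT, M with FT and TS with CS by edgeR 4.0.16 in R 4.3.3 (quasi-likelihood test, all 566 miRNAs, these scalings as library sizes, Benjamini-Hochberg adjustment, threshold 0.05). It was also run on counts simulated from its own fitted model, which cannot show how well that model describes these data. Standard errors were taken from the fold change and its F statistic. Single members were tested by two-sided exact permutation of log2 normalized counts (252 splits for 5 against 5) in Python 3.11.15. Folds and tests are given for members above detection in at least 2 samples of a group. A bound on a fold sets values of the lower group that are under detection to the detection level and keeps the values of the higher group as measured. Named are the 7 members, the 3 most alike miRNAs per member and up to 3 examples per list. Members and lists were chosen with earlier results of these data known. Samples of a group were tested as independent. The sources used here do not say whether each M came from a different mouse, and M4 may share one with FT1. Alternatives were other scalings (TMM, median, quantile, miR-425, positive ligation controls), DESeq2 1.42.0, limma 3.58.1, the methods' t-test, count filters, subtraction of negative controls, a joint fit, a replicate block and each sample left out.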

Additional observations from a re-analysis of the deposited data

How the results depend on the processing

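No member passed the threshold in FT against CT under any alternative run. Over all alternatives, 285 of 319 log2 fold changes of members kept their direction and side of the threshold, 17 lost the call, 16 gained it and 1 reversed, miR-449a in FT against CT (−0.24 without FT1, up to 0.53 with another sample left out). The corresponding difference of mean log2 values was −0.25 without FT1, up to 0.29 with another sample left out and −0.0245 with negative controls subtracted. That of miR-34c in FT against CT ranged from −2.40 (without CT2) to 0.56 with each sample left out, and reversed to 0.56 without CT1, 0.16 without CT3, 0.38 without CT4, 0.48 without FT2 and 0.54 without FT4. Both miR-34b arms kept their call in M against CT under every alternative (adjusted p at most 0.00869 and 0.00545). The members called there numbered 3 to 4 with each sample left out and 2 with the methods' t-test after Benjamini-Hochberg (3 unadjusted), while the calls over all miRNAs went from 82 to 163 with median scaling and 32 with that test, and in M against FT from 9 to 30 with DESeq2 and 0 with that test. In M against FT the count of 2 became 4 with TMM, median scaling, DESeq2, subtraction of negative controls or CT, FT and M fitted together, 1 when scaled to miR-425, and 0 after quantile normalization, in limma or by the methods' t-test. It ranged from 1 (without FT3) to 4 (without FT2) with each sample left out. Replicate numbers do not pair the samples (correlations of same-numbered deviations −0.37 to 0.32). With the replicate number as a block, the count was 0 in M against FT and 1 in TS against CS, where 90 of all miRNAs were then called. A detection level from the 3 negative ligation controls raised the bound for miR-34b-3p in M against CT to 11.04-fold. With that level, miR-34b-5p was above detection in M2 and M3, so it had no bound there, and 4 members were above detection in TS3. Scaling moved the median log2 fold change of all miRNAs in M against CT between −0.01 (quantile) and 0.66 (miR-425), and members called there stayed below 0 under each. In TS against CS it moved from −0.89 to 0.38 with positive ligation control scaling. Signal over the negative controls limits miR-34a and miR-449a, each detected in 3 of 5 CT, and every member in plasma.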
